A study of Mus musculus with 8 samples.

Results

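Sequences of 26 to 29 nt that began with a base other than T and carried A at position 10 from the 5′ end, the make-up of secondary piRNAs, were followed across 8 mouse small RNA libraries. They are called A10 sequences in what follows, and the rule that chose them used length and bases with no measured value. Of the 2137470 distinct sequences in all libraries together, 831544 were of 26 to 29 nt and 112509 met the whole rule. The rest of this length range held 140719 distinct sequences with neither a first T nor A at position 10, and 578316 that began with T (5′-T, which is U in RNA). As background, PIWI proteins bind piRNAs and silence transposons in the germ line. In the ping-pong cycle of the fetal testis, MILI (Piwil2) guided by a 5′-U piRNA slices a complementary RNA, and the sliced RNA gives a partner whose first 10 nt pair with the first 10 nt of its guide. Such a partner has A at position 10, opposite the first U of the guide, and in the mouse many of these partners are carried by MIWI2 (Piwil4).

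Male primordial germ cells (mPGCs) were taken from genital ridges on embryonic days E12.5, E13.5 or E15.5, with 2 libraries at each age, each from pooled embryos of separate litters. Their origin was GOF18, a reporter in which Pou5f1 regulatory sequence drives EGFP. The labels list C57BL/6J as the strain, with SSEA1 and CD61 as the sorting markers, whereas the study's methods describe FVB/C57BL/6J mixed animals sorted for EGFP. Both libraries of primordial germ cell-like cells (mPGCLCs) came from 1 male B6CBA/129 embryonic stem cell line, SGET, and the cells were sorted from day 6 embryoid bodies as Stella-GFP positive and Esg1-tdTomato negative. The comparisons ask how A10 sequences differ between successive ages of fetal germ cells, and between germ cells made in culture and the youngest cells from the embryo.

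Total counts were 7447873 and 13614516 in E12.5 replicates 1 and 2, 12043363 and 19734948 in E13.5 mPGCs, 13601492 and 26552524 in E15.5 mPGCs, and 10209580 and 9526338 in SGET mPGCLCs. Pairs of values below follow this order of replicates. A share is the percent of all counted reads of a library, and a floor of 3 counts lay between 1.13e-05% and 4.03e-05%. The random bases of the adapters did not serve as molecular identifiers, so intervals (95% Wilson) and floors cover counting error only. The p-values measure spread between these samples, and the smallest p of a two-sided exact permutation test with n = 2 in each group is 0.333. Libraries could not be assigned to the HiSeq and NovaSeq instruments of the study, so no sequencing batch was separated. Errors of ratios and differences are SDs carried over from both groups. In bulk RNA, fewer cells of a type and less RNA per cell cannot be told apart.

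The miRNAs that mark pluripotent and early germ cells were present in all 8 libraries, where 7 of 7 genes of the list were counted. Together they made up 1.43% and 2.05% of reads in E12.5 mPGCs, 1.20% and 1.58% in E13.5 mPGCs, 0.104% and 0.0741% in E15.5 mPGCs, and 1.86% and 2.83% in SGET mPGCLCs, and Mir292 was the most abundant of them in each library. The list was thus lowest in both E15.5 libraries. Of 4 miRNA genes that mark blood cells, Mir451a was at 0 in every library, and the list summed to 3 counts in E12.5 replicate 2, 133 in E13.5 replicate 2, 3 in E15.5 replicate 2 and 0 elsewhere. Mir126a, the endothelial marker, had 57 and 295 counts in E12.5 mPGCs, 183 and 546 in E13.5 mPGCs, 1 and 22 in E15.5 mPGCs, and 709 and 170 in SGET mPGCLCs. The gonadal soma and stroma list named Mir202, Mir143 and Mir145a. Only Mir202 had a mature sequence to match, so Mir143 and Mir145a were not measured. Mir202 made up 0.0127% and 0.0130% of reads in E12.5 mPGCs and 0.0207% and 0.0295% in E13.5 mPGCs. It made up 0.00377% and 0.00542% in E15.5 mPGCs, and 0 in both SGET libraries. These marker levels moved with age, and their part in the results below was not tested.

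A10 sequences were a small part of the reads at both E12.5 and E13.5. They made up 0.622% (95% interval 0.617 to 0.628) and 0.675% (0.671 to 0.680) of reads in E12.5 mPGCs, and 0.571% (0.566 to 0.575) and 0.867% (0.863 to 0.872) in E13.5 mPGCs. The E12.5 values lay between the E13.5 values, so the ages overlapped. The mean was 0.649% ± 0.0373 (SD, n = 2) in E12.5 mPGCs and 0.719% ± 0.210 in E13.5 mPGCs, a ratio of 1.11 ± 0.330 (exact permutation test, p = 1), and without E13.5 replicate 2 the ratio was 0.879. Distinct A10 sequences numbered 1739 and 2367 in E12.5 mPGCs and 2576 and 4405 in E13.5 mPGCs. As a percent of all distinct sequences they made up 0.895% and 1.20% in E12.5 mPGCs and 1.18% and 1.57% in E13.5 mPGCs, a ratio of 1.31 ± 0.376 (SD, n = 2; exact permutation test, p = 0.667). Among 26 to 29 nt reads, the A10 fraction was 14.5% and 14.1% in E12.5 mPGCs and 7.78% and 7.47% in E13.5 mPGCs. That lower fraction came with a 5′-T share of 1.26% and 1.69% in E12.5 mPGCs against 4.88% and 7.92% in E13.5 mPGCs.

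To test these changes across many features, reads were counted in 224 classes of length (20 to 33 nt), first base and base at position 10, of which 12 classes hold the A10 sequences. All 12 were among the classes tested. From E12.5 to E13.5, edgeR called 0 of the 12, while it called 8.93% of all classes. At an unadjusted p under 0.05 it also counted 0 of the 12, beside 26 of all 224. DESeq2 called 0 of the 12, beside 24 of all 224. By edgeR, the log2 fold changes of the 12 classes ran from −0.35 to 0.57 with a median of 0.20, beside a median of −0.08 over all 224. Their median moved with the libraries used, from −0.29 without E13.5 replicate 2 (−0.36 over all classes) to 0.52 without E13.5 replicate 1 (0.21). The 5′-T classes of 26 to 29 nt rose in 15 of 16 cases by edgeR, with a median log2 fold change of 2.20. The difference between these sets of classes was not itself tested.

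At E15.5 A10 sequences were abundant. They made up 6.82% (95% interval 6.80 to 6.83) and 7.08% (7.07 to 7.09) of reads, so both E15.5 libraries lay above both E13.5 libraries. The mean of 6.95% ± 0.184 (SD, n = 2) was 9.66 ± 2.83 times that at E13.5 (exact permutation test, p = 0.333, and no smaller p is possible here). The 26 to 29 nt reads with a first T were 49.9% and 50.9% of all reads, and of the 26 to 29 nt reads alone A10 sequences made up 10.8% and 10.99%, above E13.5 and below E12.5. A10 reads were thus far more frequent among all reads, and much less so among reads of their own length. Distinct A10 sequences numbered 72936 and 29698, or 9.29% and 8.12% of all distinct sequences, which was 6.33 ± 1.41 times the E13.5 percent (SD, n = 2; exact permutation test, p = 0.333). Their absolute number differed between the E15.5 replicates much more than their share did, and it was lower in the deeper library.

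In the test across classes, 12 of 12 A10 classes rose from E13.5 to E15.5, beside 38.8% of all classes called higher, 37.1% called lower and 75.9% called in either direction by edgeR. Their log2 fold changes ran from 2.66 to 4.20, with a median of 3.26 against 0.35 over all classes, and the highest of their adjusted p-values from edgeR was 6.87e-05. Every A10 class was higher in both E15.5 libraries than in both E13.5 libraries. The class that moved most was that of 28 nt with a first A. It made up 0.0456% and 0.0611% of reads in E13.5 mPGCs and 0.882% and 1.09% in E15.5 mPGCs (log2 fold change 4.20, SE 0.42, edgeR adjusted p = 1.18e-06). Of the 26 to 29 nt classes with neither first T nor A at position 10, edgeR called 30 of 36 higher, with a median log2 fold change of 1.65, and of the 5′-T classes 16 of 16, with a median of 2.90. The A10 classes thus rose together with the 5′-T classes, and their median was above that of the other classes without a first T, a difference that was not itself tested. Within a library, the median log2 ratio of an A10 class to the other bases at position 10 was −1.61 and −1.66 in E13.5 mPGCs and 0.17 and 0.11 in E15.5 mPGCs.

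In SGET mPGCLCs A10 sequences were about as scarce as in E12.5 mPGCs. They made up 0.718% (95% interval 0.713 to 0.724) and 0.629% (0.624 to 0.634) of reads, a mean of 0.674% ± 0.0629 (SD, n = 2). Both groups overlapped, with a ratio of 1.04 ± 0.114 (exact permutation test, p = 0.667), which was 0.970 without SGET replicate 1 and 0.998 without E12.5 replicate 1. The ratio was 0.803 when the 100 top sequences of every library were left out. Distinct A10 sequences numbered 1813 and 1306, or 0.815% and 0.844% of all distinct sequences, 0.793 ± 0.162 times the E12.5 percent (SD, n = 2; exact permutation test, p = 0.333). Both SGET libraries were below both E12.5 libraries by that measure.

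Across classes, edgeR called 0 of the 12 A10 classes between SGET mPGCLCs and E12.5 mPGCs, and 0% of all 224 classes. At an unadjusted p under 0.05 edgeR counted 1 of the 12, that of 27 nt with a first A, beside 18 of all 224. DESeq2 called 0 of the 12, beside 1 of all 224. At its unadjusted p under 0.05 it had 4 of the 12, a number given without its level over all classes. The log2 fold changes of the 12 ran from −1.18 to 0.68. Their median was −0.12 beside −0.09 over all classes, and with the size factors of DESeq2 these medians were 0.16 and 0.18. The classes thus went both ways, and their median moved with the libraries used, from −0.34 without E12.5 replicate 1 (−0.17 over all classes) to 0.15 without SGET replicate 2 (−0.06). The class of 27 nt with a first A made up 0.0516% and 0.0492% of reads at E12.5, against 0.0271% and 0.0175% in SGET mPGCLCs (log2 fold change −1.18, SE 0.38, edgeR adjusted p = 0.382).

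Among sequences without a first T, the preference for A at position 10 set E15.5 apart. Of distinct 26 to 29 nt sequences of this kind, A stood at position 10 in 24% and 25.9% in E12.5 mPGCs, 27.4% and 27.1% in E13.5 mPGCs, 48.3% and 49.7% in E15.5 mPGCs, and 23.6% and 21.6% in SGET mPGCLCs. The E15.5 percent exceeded that at E13.5 by 21.8 ± 0.981 percentage points (SD, n = 2; exact permutation test, p = 0.333). The corresponding difference was 2.28 ± 1.35 points for E13.5 minus E12.5 and −2.33 ± 1.92 for SGET mPGCLCs minus E12.5 (n = 2, exact permutation tests, p = 0.333 for each). Without each library in turn, these 2 differences ran from 1.34 to 3.21 and from −3.32 to −1.34 points. Counted over reads, these percents were 23.3% and 23.5% in E13.5 mPGCs, 50.8% and 52.6% in E15.5 mPGCs, 20.6% and 21.7% in E12.5 mPGCs, and 24.2% and 21.6% in SGET mPGCLCs. With reads, the SGET minus E12.5 difference was 1.77 points, so its sign depended on this choice.

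The A at position 10 at E15.5 exceeded A at every other position from 2 to 25 of the sequences without a first T. The highest percent elsewhere was 39.5% and 37.6%, at position 2. In the other groups some position had more A than position 10: at E12.5 it was position 20, with 32.9% and 31.8%, and at E13.5 the highest values were 33.3% and 32.4%. At E15.5, C stood at position 10 in 14.4% of both libraries, G in 20.1% and 21.1%, and T in 17.2% and 14.8%. The 5′-T sequences had A at position 10 in 31.0% and 31.5% in E15.5 mPGCs and in 26.2% and 25.7% in E13.5 mPGCs. From position 2 to 25, position 10 thus held the most A in the E15.5 sequences that lack a first T, and the 5′-T sequences held less of it.

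Preference for A at position 10 grew with length from 26 to 29 nt at E15.5. It was 37.6% and 37.7% at 26 nt, 44.5% and 45.2% at 27 nt, 53.8% and 55.0% at 28 nt, and 59.2% and 59.8% at 29 nt. Just outside the length range it was 32.2% and 33.8% at 25 nt and 58.7% and 56.8% at 30 nt, so the preference did not end at 29 nt. Beyond that it fell, to 56.1% and 47.5% at 31 nt and 50.4% and 44.5% at 32 nt. The 5′-T sequences of E15.5 had the same trend at a lower level, from 25.98% and 26.4% at 26 nt to 37.4% and 37.7% at 29 nt, so the trend was not particular to sequences without a first T. The spread over lengths was smaller at E13.5, where the 4 lengths from 26 to 29 nt had 28.1%, 27.7%, 25.7% and 28.3% in replicate 1 and 25.2%, 25.7%, 27.8% and 29.8% in replicate 2. Put the other way, which restates this trend, 54.8% and 58.4% of the distinct A10 sequences of E15.5 were 28 or 29 nt long, against 40.2% and 43.4% of other sequences without a first T and 42.0% and 45.3% of 5′-T sequences.

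The first base of the A10 sequences, which the rule left free among A, C and G, was most often A among distinct sequences at E13.5 and E15.5. Among distinct A10 sequences, A came first in 36.6% and 38.0% in E12.5 mPGCs, 49.3% and 38.5% in E13.5 mPGCs, 49.5% and 41.2% in E15.5 mPGCs, and 34.4% and 25.7% in SGET mPGCLCs. A first G was found in 41.3% and 41.0% in E12.5 mPGCs, 29% and 33.8% in E13.5 mPGCs, 27.9% and 32.7% in E15.5 mPGCs, and 35.7% and 42.9% in SGET mPGCLCs. C came first in 22.0% and 21% in E12.5 mPGCs, 21.7% and 27.7% in E13.5 mPGCs, 22.6% and 26% in E15.5 mPGCs, and 29.7% and 31.4% in SGET mPGCLCs. Among distinct A10 sequences G was therefore the most frequent first base at E12.5 and in SGET mPGCLCs, in both libraries of each. Over reads, G also led at E13.5, with 40.6% and 36.0% against 37.6% and 32.6% for A, while at E15.5 A led with 42.3% and 43.2%. The other distinct sequences without a first T at E15.5 began with A in 51.5% and 34.8% and with G in 26.4% and 34.5%, so whether a first A was more frequent among A10 sequences differed between the replicates. Over reads, A came first in 36.9% and 33.4% of this comparison set and G in 37.0% and 39.2%, so in both libraries a first A was more frequent among A10 reads. In both E15.5 libraries the mark at position 10 was shared by sequences of each first base, with A at position 10 in 47.3% and 53.9% of those beginning with A, 48.9% and 45.5% with C, and 49.7% and 48.3% with G. An undetermined first base was present in at most 23 A10 sequences of a library.

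Partners by sequence were sought next. An A10 sequence was counted as partnered when its first 10 nt were the reverse complement of the first 10 nt of a 26 to 29 nt 5′-T sequence of the same library. Partnered A10 sequences numbered 29 of 1739 and 71 of 2367 in E12.5 mPGCs (1.67% and 3.0%), 125 of 2576 and 513 of 4405 in E13.5 mPGCs (4.85% and 11.6%), 52710 of 72936 and 10616 of 29698 in E15.5 mPGCs (72.3% and 35.7%), and 16 of 1813 and 4 of 1306 in SGET mPGCLCs (0.883% and 0.306%). Wilson 95% intervals were 1.16% to 2.38% and 2.38% to 3.77% in E12.5 mPGCs, 4.09% to 5.75% and 10.7% to 12.6% in E13.5 mPGCs, 71.9% to 72.6% and 35.2% to 36.3% in E15.5 mPGCs, and 0.544% to 1.43% and 0.119% to 0.785% in SGET mPGCLCs. These percents moved with the number of distinct 5′-T starts available for a match, which was 1345 and 3129 in E12.5 mPGCs, 7571 and 20493 in E13.5 mPGCs, 116535 and 46839 in E15.5 mPGCs, and 1339 and 1003 in SGET mPGCLCs. The part of that number in the difference between groups was not tested, and overlaps of other lengths in the same library gave the level to read the 10-nt overlap against.

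For each overlap of 11 to 20 nt, the same measure was taken on sequences without a first T that had A at the position where the overlap ends, with a window of the same 10 nt. At E15.5 the 10-nt overlap stood above all of them. Its 72.3% and 35.7% compared with medians of 65.5% and 30.4% over the 11 to 20 nt overlaps, whose ranges were 63.6% to 66.3% and 27.9% to 31.5%. The excess over the median was 6.76 and 5.30 percentage points, a mean of 6.03 ± 1.03 (SD, n = 2). Overlaps without ping-pong geometry thus reached percents not far below, and the 10-nt overlap lay above them by a small margin in both libraries.

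At the other ages the 10-nt overlap did not stand out in both libraries of a group. At E12.5 it was below the median of the other overlaps (4.61% and 3.94%), by −2.94 and −0.936 points. At E13.5 it was above the median (3.46%) by 1.39 points in replicate 1, where it ranked first of 11 overlaps, and differed from the median (12.3%) by −0.658 points in replicate 2. In SGET mPGCLCs it differed from the medians (0.586% and 0.497%) by 0.297 and −0.191 points. Outside E15.5, and apart from E13.5 replicate 1, other overlaps reached higher values, with 14.3% and 18.7% at 20 nt at E12.5, 18.6% at 20 nt in E13.5 replicate 2, and 4.44% and 5.62% at 17 nt in SGET mPGCLCs.

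With only the most abundant 5′-T starts, the 10-nt overlap was again above the other overlaps at E15.5. With the 1000 most abundant 5′-T starts of each library, a setting chosen after seeing the data that gives every library the same number of starts, 4.09% and 2.93% of A10 sequences were partnered at E15.5, against medians of 1.96% and 1.65% and maxima of 2.25% and 2.24% over the other overlaps. At E13.5 the same setting gave 0.582% and 0.749% against medians of 0.552% and 0.468% and maxima of 1.19% and 0.549%, and at E12.5 it gave 1.61% and 2.15% against medians of 4.03% and 1.73%. In SGET mPGCLCs it gave 0.827% and 0.306% against 0.564% and 0.497%. The 10-nt overlap thus stood above all other overlaps in E13.5 replicate 2 as well as in both E15.5 libraries. Other overlaps at this setting reached 14.2% and 15.8% in the E12.5 libraries, above the 10-nt values of E15.5, so the percents at 10 nt are read within a library and not ranked across groups.

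A 5′-T guide pairs with a partner through 9 further bases beside its first T, so pairing of the first 9 nt can be compared between sequences with A and with another base at position 10. At E15.5, 72.3% and 35.7% of A10 sequences paired in this way, against 63.6% and 26.9% of sequences with C, G or T at position 10. With the 1000 most abundant starts the contrast was 4.09% against 1.19% and 2.93% against 1.18%. At E13.5 it was 4.85% against 4.30% and 11.6% against 9.61% with all starts, and at E12.5 it was 1.67% against 0.782% and 3.0% against 1.49%. In SGET mPGCLCs the values were 0.883% against 0.665% and 0.306% against 0.994%. With all starts, A10 sequences thus paired more often than the others pooled in all 6 mPGC libraries, and the SGET libraries differed in direction. In E13.5 mPGCs this did not hold for each base or setting: G at position 10 reached 5.68% in replicate 1, C reached 13.8% in replicate 2, and with the 1000 most abundant starts replicate 1 had 0.582% for A10 sequences against 0.601% for the others.

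Partnered A10 sequences at E15.5 carried 5.12% and 2.5% of all reads. The 5′-T sequences they matched numbered 90601 and 15722 and carried 12.3% and 4.85% of reads. Partnered A10 sequences were 28 or 29 nt long in 55.8% and 59.4% of cases, and those without a partner, 20226 and 19082 in number, in 52.2% and 57.8%. Their 5′-T partners were of that length in 42.1% and 46.6%, and 5′-T sequences without a partner in 42.0% and 45.1%. The longer lengths of A10 sequences at E15.5 were thus seen with and without a partner.

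Most A10 sequences were seen in a single library, like most sequences of their length. Of all 112509, 109512 (97.3%) were counted in 1 library and 18 in all 8, beside 97.4% of 5′-T sequences and 96.2% of other sequences without a first T in 1 library. Both E15.5 libraries shared 1276, which were 1.75% and 4.30% of their A10 sequences and held 4.60% and 15.9% of their A10 reads. Of these 1276, 1126 (88.2%) were in no other library, 128 were in an E13.5 library, 71 in an E12.5 library and 42 in an SGET library. Among the 908 shared sequences with neither first T nor A at position 10, 589 (64.9%) were in no other library, and among the 6766 shared 5′-T sequences, 5638 (83.3%). The shared A10 set of E15.5 was thus made up mainly of sequences not counted at the earlier ages or in culture, and in this it was close to the shared 5′-T set.

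Reads were spread over many A10 sequences at E15.5 and concentrated in a few elsewhere. The 10 most abundant A10 sequences held 1.18% and 1.85% of A10 reads in E15.5 mPGCs, against 19.7% and 23.8% in E12.5 mPGCs, 22.2% and 19.5% in E13.5 mPGCs, and 39.8% and 42.6% in SGET mPGCLCs. In each library a large part was counted once, 63.4% and 54.8% in E15.5 mPGCs, 54.7% and 34.6% in E12.5 mPGCs, 69.3% and 41.7% in E13.5 mPGCs, and 65.7% and 64.9% in SGET mPGCLCs. The mean count of an A10 sequence was 12.7 and 63.3 at E15.5, so the deeper replicate had fewer distinct sequences with more reads on each.

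The sources of the A10 sequences were read from exact matches to GENCODE M21 transcripts on either strand. Most distinct A10 sequences matched none, 87.2% and 80.0% in E12.5 mPGCs, 93.8% and 78.8% in E13.5 mPGCs, 92.2% and 96.0% in E15.5 mPGCs, and 93.2% and 94.4% in SGET mPGCLCs. Structured small RNAs (snoRNA, snRNA, rRNA, miRNA, mitochondrial and miscellaneous RNA) gave 18.4% and 23.0% of A10 reads in E12.5 mPGCs, 19.0% and 18.6% in E13.5 mPGCs, and 38.8% and 38.0% in SGET mPGCLCs, but 0.398% and 0.528% in E15.5 mPGCs. The largest of these kinds was snoRNA, with 11.6% and 16.0% of A10 reads in E12.5 mPGCs, 12.9% and 9.92% in E13.5 mPGCs, 0.184% and 0.351% in E15.5 mPGCs, and 26.3% and 32.4% in SGET mPGCLCs. Outside E15.5 the rule thus took in fragments of these structured RNAs as a larger part of the A10 reads. The kinds follow the GENCODE types and do not include cytosolic tRNA, so fragments of other structured RNAs were not counted among them.

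A10 sequences also differed from the other sets in strand, at E15.5 and in most other libraries. Of those that matched transcripts on 1 strand only, 40.1% (of 4963) and 42.7% (of 1011) were antisense at E15.5, against 26.7% and 29.5% of 5′-T sequences and 29% and 30.1% of other sequences without a first T. Antisense A10 sequences were 19.3% and 18.3% in E12.5 mPGCs, 16.0% and 10.5% in E13.5 mPGCs, and 36.9% (of 65) and 24.2% (of 33) in SGET mPGCLCs. For 5′-T sequences the antisense percent was 8.76% and 13.0% in E12.5 mPGCs and 15.2% and 28.8% in SGET mPGCLCs. For other sequences without a first T it was 9.77% and 15.1% in E12.5 mPGCs and 22.0% and 21% in SGET mPGCLCs. The antisense percent was higher at E15.5 than at E13.5 in the other sets too, which at E13.5 had 5.83% and 4.96% for 5′-T sequences and 11.4% and 6.97% for other sequences without a first T. The difference between these ages was thus not particular to A10 sequences, and the SGET values rest on few sequences. The higher antisense percent of A10 sequences was not particular to E15.5. It held against both other sets in every library but SGET replicate 2, where 5′-T sequences were above them. Sequences that matched a structured small RNA in sense were left out of these strand counts. The A10 sequences counted here, also with those matching both strands, were thus a subset of the matched ones above.

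Position on transcripts gave a measure of ping-pong geometry that does not rest on matches of 10 nt elsewhere. Among A10 sequences placed on a transcript, those with a 5′-T sequence on the opposite strand at exactly 10 nt of overlap were 793 of 5649 (14.04%, Wilson 95% interval 13.2 to 14.97) and 30 of 1139 (2.63%, 1.85 to 3.74) at E15.5, an alternative chosen after seeing the data. The median over the other overlaps from 1 to 25 nt was 7.50% and 0.953%, and the highest of them was 9.21% (7 nt) and 2.52% (22 nt). In the other 6 libraries it was found for 0 of 43 to 816 placed A10 sequences, and the floor of 3 counts was 0.368% in E13.5 replicate 2 and 6.98% in SGET replicate 2. The other overlaps were also at or near 0 in these libraries, with medians of 0% and at most 0.248%, so no overlap length could be told from another there. The 10-nt overlap was therefore the most frequent of the 25 in both E15.5 libraries, though in replicate 2 the margin was within its interval.

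The most abundant A10 sequences show which RNAs lead each group. They are the 3 that ranked highest by mean share in the E15.5 libraries, and the top sequence of each other group, which was the same snoRNA fragment in E12.5 mPGCs, E13.5 mPGCs and SGET mPGCLCs. Capitals mark the A at position 10.
E15.5 first: gcctgttgcAttttcctctgttcctcttt
E15.5 second, and first in the other groups: gggagatgaAgaggacagtgactgagaga
E15.5 next in rank: gcctgttgcAttttcctctgttcctctt
The E15.5 first sequence had 1583 and 3369 counts in E15.5 mPGCs, 189 and 73 in E13.5 mPGCs, and 0 in E12.5 mPGCs and in SGET mPGCLCs. Its mean share at E15.5 was 0.0122% ± 0.000742 (SD, n = 2), and it matched no transcript. The sequence next in rank, which equals its first 28 nt, had 1322 and 2995 counts at E15.5, 1 count in E12.5 replicate 2 and 0 elsewhere. Forms of 26 to 29 nt that begin with the first 20 nt common to both numbered 35 and 34 in E15.5 mPGCs, with 4215 and 8751 counts. These forms had 193 and 775 counts in E13.5 mPGCs, 0 and 2 in E12.5 mPGCs, and 0 in both SGET libraries. At E15.5 the forms outnumbered the lengths in this range, so some differed in bases after the first 20 nt. The 5′-T sequences that paired with the first 10 nt of this shared 5′ end had 17 and 2 counts at E15.5. Forms of 26 to 29 nt that share the first 20 nt of the snoRNA fragment had 976 and 4826 counts in E15.5 mPGCs. Among the sequences listed here, a shared 5′ end with varied length or bases after it thus led in both E15.5 libraries. As a single sequence, the E15.5 first sequence led by mean share, but in replicate 2 the snoRNA fragment had more counts (4787).

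The snoRNA fragment had the opposite pattern. It had 2761 and 6759 counts in E12.5 mPGCs, 5873 and 8253 in E13.5 mPGCs, 669 and 4787 in E15.5 mPGCs, and 9952 and 7452 in SGET mPGCLCs. As shares these were 0.0371% and 0.0496% in E12.5 mPGCs, 0.0488% and 0.0418% in E13.5 mPGCs, 0.00492% and 0.0180% in E15.5 mPGCs, and 0.0975% and 0.0782% in SGET mPGCLCs. It was thus most abundant in SGET mPGCLCs and least at E15.5, with no overlap between either group and the rest. Since it was named as the top sequence of each group other than E15.5, the choice favours high values there and so this contrast. It matched 3 snoRNA genes of 85 nt in sense on GRCm38: Gm22192 (chr2:32222026-32222054, plus strand), Gm25632 (chr2:32225709-32225737, plus strand) and Gm24920 (chr3:95090625-95090653, minus strand). These loci share the sequence, so the counts cannot be divided among them.

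Among A10 sequences that reached 10 counts in each E15.5 library, 26 of 253 paired over their first 10 nt with any of 1825 5′-T sequences of the same abundance, in 38 pairs. No other overlap length is given for this pool, so the number is not read as an excess. The 3 most abundant pairs with different starts are given, and capitals mark the first 10 nt, which are reverse complements within a pair.
Pair 1, A10 sequence: CTTCTTCTTAgggcaaggactaaacta
Pair 1, 5′-T sequence: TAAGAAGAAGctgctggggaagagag
Pair 2, A10 sequence: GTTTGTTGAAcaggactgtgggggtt
Pair 2, 5′-T sequence: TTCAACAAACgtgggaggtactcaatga
Pair 3, A10 sequence: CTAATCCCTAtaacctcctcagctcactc
Pair 3, 5′-T sequence: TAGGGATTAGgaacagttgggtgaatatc
The A10 sequence of pair 1 had 686 and 547 counts in E15.5 mPGCs and 104 in E13.5 replicate 2, and its 5′-T sequence had 174 and 2084 in E15.5 mPGCs. In pair 2 the counts at E15.5 were 181 and 1201 for the A10 sequence and 166 and 1880 for the 5′-T sequence. In pair 3 they were 30 and 1380, and 112 and 1170. All of these sequences were at 0 in E12.5 mPGCs and SGET mPGCLCs, and at E13.5 only the count given for pair 1 was found. The pairs were chosen by their counts at E15.5, which favours low values elsewhere, so no difference between groups is read from them. Counting all 5′-T sequences with the same first 10 nt as the partner, pair 1 had 1684 and 3367 counts in E15.5 mPGCs and 1 and 367 in E13.5 mPGCs, pair 2 had 288 and 5738 in E15.5 mPGCs and 0 and 127 in E13.5 mPGCs, and pair 3 had 853 and 2604 in E15.5 mPGCs and 0 and 80 in E13.5 mPGCs.

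Transcript positions placed pairs 2 and 3 on opposite strands with overlapping 5′ ends, as the ping-pong geometry has it. The A10 sequence of pair 3 lay antisense in the 3′ UTR of D10Wsu102e (chr10:83389141-83389169, GRCm38, minus strand), and its 5′-T sequence lay in sense (chr10:83389160-83389188, plus strand), with a 10-nt overlap at this locus. For pair 2, both sequences matched 5 lincRNA loci at a 10-nt overlap in 5 of 5, among them Gm42047, where the A10 sequence was antisense (chr8:121838913-121838938, minus strand) and the 5′-T sequence sense (chr8:121838929-121838956, plus strand). For pair 1, the A10 sequence matched no transcript. Its 5′-T sequence was in sense to Gm30055 (chr6:136987326-136987351, plus strand) and antisense to the 3′ UTR of Slc29a3, a nucleoside transporter gene, at chr10:60714896-60714921 and chr10:60712767-60712792 (plus strand). A shared locus was therefore found for pairs 2 and 3, and pair 1 rested on sequence alone.

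At E15.5 the transcript with the most distinct A10 matches was that of D10Wsu102e (chr10:83360221-83488505, plus strand), whose annotated transcript of 123179 nt runs through a long 3′ UTR. The number of matches was not scaled to transcript length. The Gm42047 transcript, with 385 and 54 matches at E15.5, was 4988 nt long. Outside E15.5 it did not always lead, since Gm42418 was matched by 15 and 31 in E12.5 mPGCs and 15 and 5 in SGET mPGCLCs. D10Wsu102e was matched by 1 and 10 A10 sequences in E12.5 mPGCs, 1 and 36 in E13.5 mPGCs, 670 and 94 in E15.5 mPGCs, and 3 and 1 in SGET mPGCLCs. At E15.5, 440 and 63 of these were sense and 230 and 31 antisense, and 5′-T sequences of the gene were 2377 and 281 sense and 464 and 77 antisense. Both strands of this transcript were thus matched by A10 and 5′-T sequences, with sense the more frequent in each set. Of its A10 sequences at E15.5, 518 and 77 matched no other gene. Matches outside annotated transcripts were not sought, so origin from this locus was not tested. Of the sequences of this gene without a first T, 58.5% and 69.6% had A at position 10 at E15.5. Reads on it numbered 27456 and 71247 for the A10 sequences in E15.5 mPGCs, against 231 and 2174 in E13.5 mPGCs. Since the gene was chosen by its A10 matches at E15.5, the choice favours this contrast and that of the match counts.

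The lincRNA gene Gm42047 (chr8:121833247-121841178, plus strand) was matched by 385 and 54 A10 sequences at E15.5, with 182 and 25 in sense and 203 and 29 antisense. At most 4 matched it in any library of the other groups, a contrast that the choice of genes by E15.5 matches also favours. A at position 10 was found in 63.0% and 76.1% of its E15.5 sequences without a first T, a percent that the choice of genes by number of A10 matches favours, as it does for D10Wsu102e. Only 49 and 10 of its A10 sequences matched no other gene, since related lincRNAs share them. Gm48362 (chr9:25855315-25859652, minus strand), with which it shares pair 2, had 284 and 39 at E15.5, and Gm42427 (chr5:44137980-44143271, plus strand) had 324 and 36, of which 167 and 23 matched no other gene. The counts of Gm42047 and Gm48362 thus overlapped and do not add up, whereas a larger part of those of Gm42427 were its own.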

How the data were processed

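Small RNA was measured in 8 libraries, grouped by their labels. The authors trimmed reads with cutadapt 3.2, mapped them to GRCm38 with STAR 2.5.3a and deposited a table for each library with the raw count of every sequence. Shares, base frequencies and overlaps came from these counts (scipy 1.17.1, pandas 2.3.3 and numpy 2.4.6 under Python 3.11.15). Two-sided exact permutation tests compared the groups. Counts of 224 classes entered edgeR 4.0.16 under R 4.3.3 (quasi-likelihood test, 4 groups in a joint fit, total counts as library size, Benjamini-Hochberg adjustment, threshold 0.05), with DESeq2 1.42.0 as an alternative. Class tests and overlap code were tested on simulated data. Exact matches were sought in GENCODE M21 transcripts and, for mature miRNAs, in RefSeq. Sequences were named by rank of mean share in each group and, for pairs, by the smaller mean share of both sequences at E15.5. Genes were named by number of A10 matches at E15.5, after their values were seen. The members and lists were chosen with earlier results of these data known. Matches on chromosome 18 were left out of the named sequences and genes, and placement in the genome was not analysed here.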

Additional observations from a re-analysis of the deposited data

How the results depend on the processing

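For 20 results, 165 alternatives were computed, of which 101 kept every library and 64 left out a library. Of the 31 alternatives for E15.5 against E13.5, all kept the direction, and without each library in turn the share ratio ran from 8.01 to 12.2. Relative to reads of 20 to 33 nt, the share ratio turned to 0.961 for E13.5 over E12.5 and to 0.983 for SGET mPGCLCs over E12.5, and without the 100 most abundant sequences the latter was 0.803. Without each library in turn these ratios ran from 0.879 to 1.34 and from 0.970 to 1.11. Weighted by reads, the SGET minus E12.5 difference in A at position 10 was 1.77 points. The cause was not tested for any of these.

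The 10-nt overlap percent followed the set of sequences used. In SGET mPGCLCs, where it was 0.594%, it was 0.0586% weighted by reads and 0.941% with at least 2 counts. With settings chosen after seeing the data, it was 1.07% at E12.5, 4.64% for E13.5 and 0% in SGET mPGCLCs for sequences at or above the first minimum of each library's histogram of counts, and 0.666% for E13.5 and 3.51% for E15.5 with the 1000 most abundant 5′-T starts. By position on transcripts it was 0% in each group but E15.5, where it was 8.34%. Leaving out each library in turn gave 1.67% to 3.0% at E12.5, 4.85% to 11.6% for E13.5, 35.7% to 72.3% for E15.5 and 0.306% to 0.883% in SGET mPGCLCs.

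The excess of the 10-nt overlap over the median of other overlaps stayed above 0 at E15.5, with 7.18 points weighted by reads, 8.41 with at least 2 counts, 1.70 with the 1000 most abundant starts, 7.70 above the histogram minimum and 4.11 on transcripts. At E12.5, where it was −1.94, it was 0.198 weighted by reads, −1.17 with at least 2 counts, −1.06 with distinct first 20 nt, −0.994 with the 1000 most abundant starts, 0.00907 above the minimum and 0 on transcripts. At E13.5, where it was 0.366 with a spread between replicates of 1.45, it was −0.523 weighted by reads, −0.465 with at least 2 counts, 0.772 with distinct first 20 nt, 0.156 with the 1000 most abundant starts, −0.114 above the minimum and 0 on transcripts. In SGET mPGCLCs, where it was 0.0531, it was −0.416 weighted by reads, 0.600 with at least 2 counts, −0.0815 with distinct first 20 nt, 0.0905 drawn down to the smallest library, −0.367 above the minimum and 0 on transcripts. Without each library it ran from −2.94 to −0.936 at E12.5, −0.658 to 1.39 at E13.5, 5.30 to 6.76 at E15.5 and −0.191 to 0.297 in SGET mPGCLCs. The cause was not tested. Drawn down to the smallest library, the 10-nt overlap was 2.05% for E12.5, 7.04% for E13.5, 48.1% for E15.5 and 0.553% for SGET mPGCLCs.

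Same-numbered replicates were different embryos or cultures, and the labels give them only a number in common. Whether they shared a sequencing run could not be checked. With the number as a replicate block, edgeR called 0, 12 and 0 of the A10 classes for E13.5 against E12.5, E15.5 against E13.5 and SGET mPGCLCs against E12.5, and the share ratios were 1.09, 9.87 and 1.04. Deviations of same-numbered replicates from their group means correlated across the 224 classes with 0.0830, 0.557 and 0.108. For E15.5 against E13.5 the count was also 12 without each library in turn, where the lone library of a group is assumed to vary like the other groups of the fit. Placement on GRCm38 as an alternative to transcripts was not run.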
